A study of Mus musculus with 24 samples.

Results

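The genes described here are Eif4ebp3, Cebpe, Sucnr1, Tbc1d30, Mme, Tcf24, Slc15a5 and H2ac18, measured in mouse liver. They are the 8 rows of these names among the 34945 named genes of the table. They were chosen by their measured levels, which differed between livers with and without FoxO1, either with PPARα present or with it deleted. The differences between FoxO1-deleted and FoxO1-containing livers below are therefore descriptions and carry no test. All 8 had a mean level of at least 1 TPM over all libraries, the minimum for testing, and Mme, with 8 libraries at or above 1 TPM, and Tcf24, with 7, met it only through the groups in which they were high. Mme and Tcf24 are therefore described, with no test, in every comparison.

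Polyadenylated RNA of whole liver was sequenced in 24 libraries, in 8 groups of 3 made of 4 genotypes on 2 diets. LFPKO livers were labelled FoxO1-/-; PPARα-/-, LPKO livers PPARα-/- and LFKO livers FoxO1-/-. WT livers carried floxed alleles of both genes (FoxO1lox/lox; PPARα lox/lox), and no Cre is stated for them. Knockouts were made with an Albumin-Cre transgene, which acts in hepatocytes and leaves the genes intact in the other cells of the liver. Mice were on a high-fat diet (HFD) for 3 weeks or on a regular diet (RD), and all were fasted for 4 h. Age and sex are not stated in the labels used here. Nor do the labels tie each replicate to its own animal, and the spread behind the p-values may thus be technical.

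FoxO1 is a forkhead transcription factor that insulin keeps out of the nucleus, so that in the fasted liver it turns on genes such as those of glucose production. PPARα is a nuclear receptor that fatty acids activate and that drives fat oxidation in fasting. The 8 genes are not classical targets of either in textbooks. They encode a translation inhibitor, a peptidase, a receptor, 2 transcription factors, a regulator of vesicle traffic, a transporter-like protein and a histone.

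Levels are in TPM, transcript abundance relative to all transcripts of the library, a share that hides read number, and the depth behind each value is unknown. From 9749 to 10937 genes were at 1 TPM or more in a library. Foxo1 was at 0.250 to 0.484 TPM in the 12 LFKO and LFPKO libraries and at 4.06 to 9.94 TPM in the 12 LPKO and WT libraries, as labelled. Ppara levels were not lower in LFPKO than in LFKO livers or in LPKO than in WT livers, so they do not check the PPARα label. Changes are differences of log2(TPM + 1) ± SE, called log2 differences, and this scale makes the change of a gene near or below 1 TPM look smaller. Members that passed a limma adjusted p of 0.05 over 10551 tested genes are said to have risen or fallen. In whole liver, fewer cells of a type and less RNA per cell cannot be told apart.

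Sucnr1, Mme and H2ac18 lie on chromosome 3. Sucnr1 and Mme were low in the livers labelled as lacking both factors, and Mme was also low in LFKO and HFD WT livers. The 250 bases before the RefSeq start of Sucnr1 and of Mme are shown because they hold, or lack, the letters of forkhead sites (RefSeq, GRCm38.p6, plus strand). The Sucnr1 stretch is chr3:60081619-60081868 and the Mme stretch, the first of 3 annotated starts, is chr3:63294961-63295210. Capitals mark a match to a searched motif.
Sucnr1: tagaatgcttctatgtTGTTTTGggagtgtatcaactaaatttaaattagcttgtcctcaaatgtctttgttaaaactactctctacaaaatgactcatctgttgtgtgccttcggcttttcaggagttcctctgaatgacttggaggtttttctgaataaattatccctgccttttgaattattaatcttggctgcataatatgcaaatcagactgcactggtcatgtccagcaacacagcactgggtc
Mme: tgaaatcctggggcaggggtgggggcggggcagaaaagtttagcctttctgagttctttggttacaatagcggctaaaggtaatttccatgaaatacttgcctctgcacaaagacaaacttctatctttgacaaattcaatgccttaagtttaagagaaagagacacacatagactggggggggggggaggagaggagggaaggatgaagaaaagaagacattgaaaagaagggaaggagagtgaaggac
The letters searched on both strands were CAAAACA, the core of the insulin response element, GTAAACA, the core forkhead site, and the DR1 direct repeat, of the kind PPARα binds with its partner RXR. RefSeq windows of 300 bases were at hand for 4 of the 8 genes, Sucnr1, Mme, H2ac18 and Slc15a5, 6 windows in all. Sucnr1 held CAAAACA on its minus strand, 234 bases before the start, and the other windows held none of the 3 motifs. Of all 32851 such windows, 6.28% held CAAAACA, 3.65% GTAAACA and 0.0396% the direct repeat, so a match is a description of the letters and not evidence of a site.

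Eif4ebp3 encodes a binding protein of the cap-binding factor eIF4E, which holds back the start of translation. It was at 7.17 to 421 TPM over the 24 libraries, with a mean of 120 TPM, and lay lower wherever FoxO1 was deleted. On HFD it stood at 85.7, 57.1 and 57.6 TPM in LFKO livers, against 245, 128 and 185 TPM in WT livers. On RD it stood at 9.85, 7.17 and 8.40 TPM in LFKO livers, against 121, 81.0 and 64.0 TPM in WT livers. Neither pair of groups overlapped. With PPARα deleted, the HFD livers had 124, 76.8 and 64.9 TPM in LFPKO and 421, 241 and 278 TPM in LPKO. The RD livers had 30.7, 36.0 and 49.3 TPM in LFPKO and 128, 258 and 118 TPM in LPKO, again without overlap. The log2 differences were -1.44 for LFKO against WT and -1.83 for LFPKO against LPKO on HFD. They were -3.20 for LFKO against WT and -2.03 for LFPKO against LPKO on RD (SE 0.32 for each). Eif4ebp3 lies on chromosome 18 (GRCm38, 36664060 to 36665917, plus strand, GENCODE M21) within a longer protein-coding gene of the same strand, AC115631.1, that holds 66.4% of its 31-base words, so how reads were divided between them is uncertain.

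Mme encodes neprilysin, a membrane peptidase that cleaves small peptides such as natriuretic peptides outside the cell. Its high levels were in LPKO livers and in some RD WT livers. On HFD it was at 0.298, 0.147 and 0.366 TPM in LFPKO livers, against 6.48, 6.11 and 5.92 TPM in LPKO livers. On RD it was at 0.0816, 0.137 and 0.371 TPM in LFPKO livers, against 4.83, 4.98 and 4.68 TPM in LPKO livers. The LPKO libraries lay close together and far above every LFPKO library, with log2 differences of -2.50 on HFD and -2.29 on RD (SE 0.28 for each). With PPARα present the picture differed between diets. On HFD the LFKO livers had 0.440, 0.170 and 0.678 TPM and the WT livers 0.196, 0.173 and 0.119 TPM, which overlapped at a low level (0.28 ± 0.28). On RD the LFKO livers had 0.231, 0.302 and 0.134 TPM, against 0.268, 2.11 and 3.71 TPM in WT livers, whose lowest library overlapped with LFKO (-1.12 ± 0.28). Without RD WT replicate 1 that difference was -1.65, and without replicate 3 it was -0.70.

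Sucnr1 encodes the G protein-coupled receptor for succinate, known in the liver from stellate cells. It was low in all 6 LFPKO libraries and in the HFD WT livers. On HFD the LFPKO livers had 4.86, 4.20 and 4.36 TPM, against 16.7, 18.1 and 12.1 TPM in LPKO livers. On RD the LFPKO livers had 5.24, 3.43 and 3.95 TPM, against 19.4, 16.4 and 24.3 TPM in LPKO livers. These groups did not overlap, and the log2 differences were -1.59 on HFD and -2.01 on RD (SE 0.27 for each). With PPARα present FoxO1 deletion gave no such decrease. HFD LFKO livers had 9.98, 18.4 and 21.2 TPM, against 8.86, 5.0 and 9.54 TPM in HFD WT livers, a log2 difference of 0.98 ± 0.27. In the same HFD livers 9 stellate markers summed to 179 to 202 TPM in LFKO and 91.5 to 141 TPM in WT, with 4 of 8 tested markers higher and 0 of 8 after rescaling by size factors. Of all 10551 genes 1343 were higher there, and 235 after rescaling. The markers' part was not tested. RD LFKO livers had 20.8, 15.6 and 17.8 TPM, against 11.1, 23.6 and 22.0 TPM in RD WT livers, and overlapped with them. Sucnr1 spans 60081869 to 60087566 of chromosome 3 on the plus strand.

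Cebpe encodes a C/EBP transcription factor best known for the maturation of granulocytes. It was listed at 0 in all 3 RD LFKO libraries, against 7.91, 4.70 and 4.35 TPM in RD WT livers, and no fold is given against a group at 0. The other groups held it at a few TPM. RD LFPKO livers had 4.74, 4.92 and 8.30 TPM, against 11.3, 5.40 and 8.12 TPM in RD LPKO livers, with overlap. On HFD the order of LFKO and WT was the other way round. HFD LFKO livers had 3.44, 3.04 and 2.83 TPM, against 1.99, 0 and 2.23 TPM in HFD WT livers. HFD LFPKO livers had 3.06, 3.78 and 0 TPM, against 4.06, 3.49 and 6.03 TPM in HFD LPKO livers. An exact 0 in such a table can be a failed estimate; 150 of the 10551 tested genes were at 0 in at least 1 library and 41 in all 3 libraries of a group, and none of 10 housekeeping genes was at 0 in any library. Markers of neutrophils and granulocyte precursors, 14 genes, summed to 21.8 to 27.0 TPM in RD LFKO livers and to 13.2 to 20.9 TPM in RD WT livers. Only 3 of the 14 averaged at least 1 TPM in RD LFKO and 4 in RD WT. Ly6g was at 0 in both groups and Camp in RD LFKO. Of 3 tested markers 0 were called higher and 0 lower. The markers' part in the Cebpe result was not tested.

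Tcf24 encodes a basic helix-loop-helix protein about which little is known, and it was the only one of the 8 that was high when FoxO1 was deleted, on both diets. On HFD the LFKO livers had 2.81, 3.72 and 5.06 TPM, against 0.227, 0.0292 and 0.0870 TPM in WT livers. On RD the LFKO livers had 7.91, 8.45 and 10.5 TPM, against 0.909, 0.225 and 0.0464 TPM in WT livers. The log2 differences were 2.10 on HFD and 2.88 on RD (SE 0.21 for each), and with a pseudocount of 0.1 they were 4.28 and 4.63. With PPARα deleted the high level was not seen. HFD LFPKO livers had 0.0311, 0.117 and 0.342 TPM, against 0.363, 0.109 and 0.0720 TPM in HFD LPKO livers. RD LFPKO livers had 0.988, 1.45 and 0.533 TPM, against 0.608, 0.439 and 0.547 TPM in RD LPKO livers. Both of these pairs overlapped.

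Tbc1d30 encodes a TBC-domain protein of the kind that switches off Rab GTPases, the regulators of vesicle traffic. On HFD the LFKO livers had 2.69, 1.71 and 1.88 TPM, against 7.23, 5.59 and 7.07 TPM in WT livers. On RD the LFKO livers had 1.61, 1.69 and 1.49 TPM, against 2.77, 4.20 and 3.79 TPM in WT livers. LFKO was lower without overlap on both diets (-1.31 on HFD and -0.81 on RD, SE 0.19 for each). RD LFPKO livers had 2.06, 2.16 and 1.74 TPM, against 8.65, 7.09 and 9.53 TPM in RD LPKO livers (-1.65 ± 0.19). On HFD these groups overlapped, with 6.37, 3.83 and 2.78 TPM in LFPKO livers, against 5.53, 4.71 and 6.51 TPM in LPKO livers. The HFD difference was -0.35 ± 0.19, and it was -0.61 without HFD LFPKO replicate 1, the highest of its group.

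Slc15a5 is named as a member of the SLC15 family of proton-coupled peptide transporters. The only contrast without overlap was on RD with PPARα present. RD LFKO livers had 0.347, 0.487 and 0.763 TPM, against 8.16, 8.90 and 11.5 TPM in RD WT livers (-2.77 ± 0.61). HFD LFKO livers had 2.46, 0.471 and 0.542 TPM, against 3.26, 0.382 and 0.359 TPM in HFD WT livers. HFD LFPKO livers had 2.85, 5.82 and 0.388 TPM, against 3.29, 12.2 and 4.92 TPM in HFD LPKO livers. RD LFPKO livers had 10.2, 2.69 and 2.63 TPM, against 3.79, 0.427 and 4.51 TPM in RD LPKO livers. Libraries of 1 group differed several-fold in these 3 pairs, and Slc15a5 had the largest SE of the 8 genes, 0.61 for each pair.

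H2ac18 encodes an H2A core histone, and the values cover only its polyadenylated RNA, since only such RNA was sequenced. RD LFPKO livers had 7.26, 6.63 and 1.63 TPM, against 15.1, 18.7 and 20.7 TPM in RD LPKO livers (-1.79 ± 0.34), and the difference was -1.26 without RD LFPKO replicate 3. RD LFKO livers had 14.9, 22.2 and 18.1 TPM, against 14.1, 9.01 and 7.72 TPM in RD WT livers (0.81 ± 0.34). So deletion of FoxO1 went with a lower level without PPARα and a higher one with it. On HFD both pairs overlapped. HFD LFPKO livers had 6.02, 6.66 and 7.65 TPM, against 11.4, 8.54 and 7.40 TPM in HFD LPKO livers. HFD LFKO livers had 11.2, 8.48 and 8.47 TPM, against 4.80, 10.2 and 13.03 TPM in HFD WT livers.

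**Figure D1:**
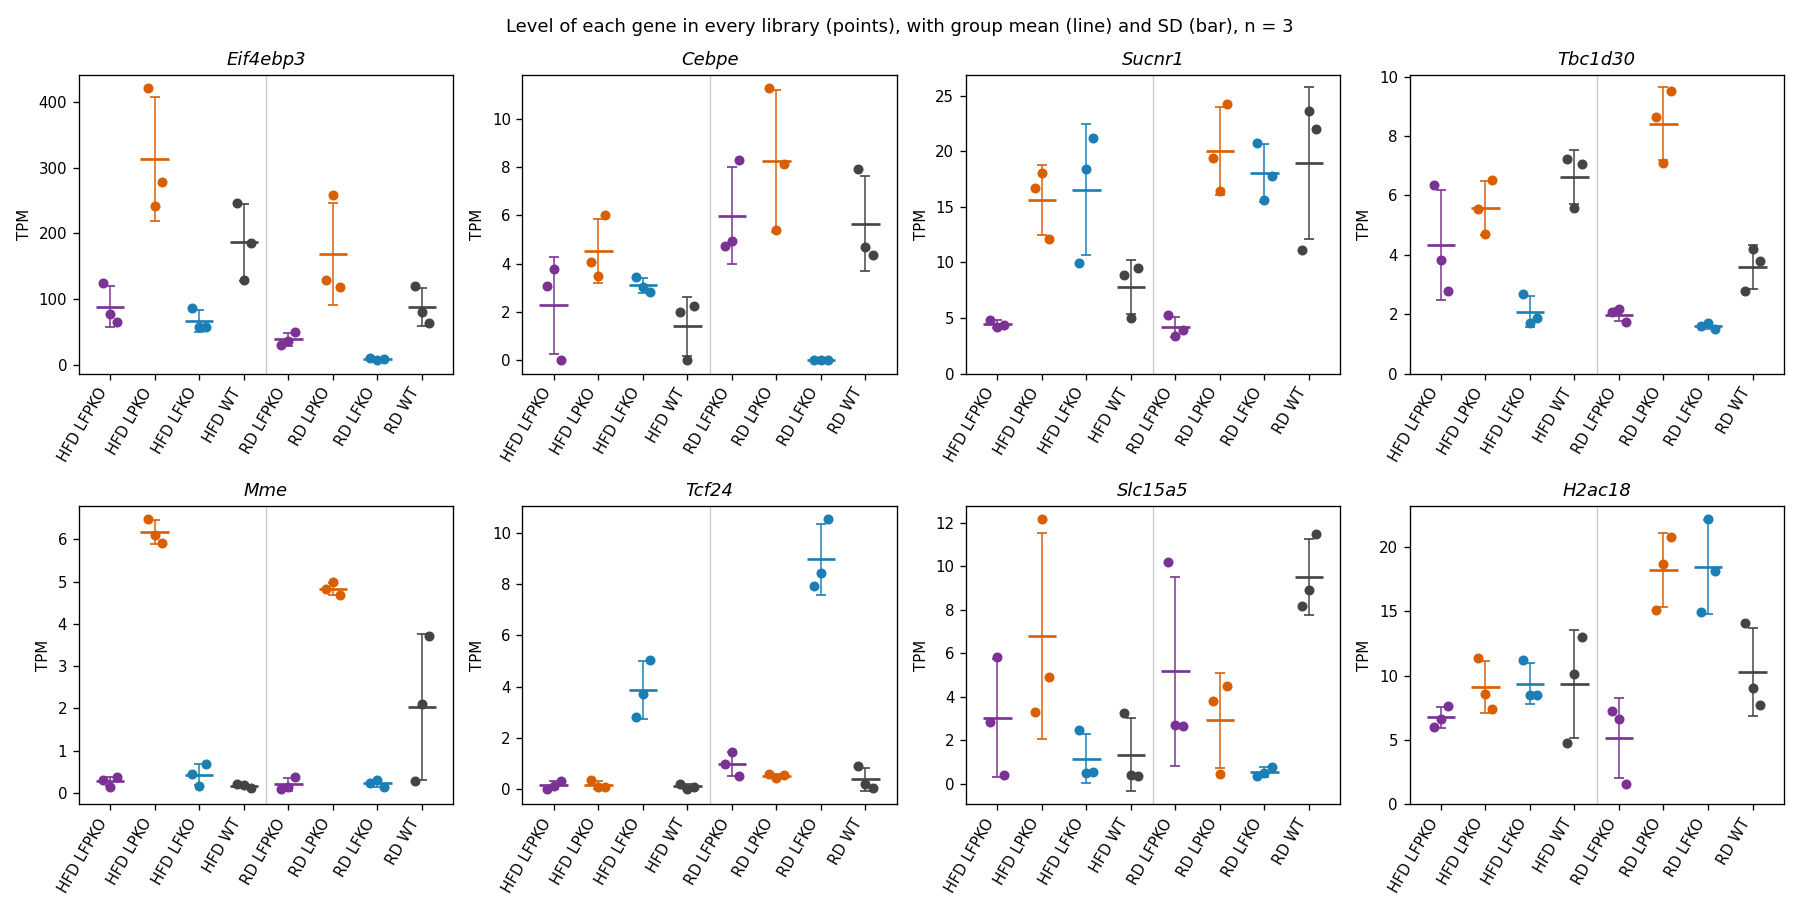
Level of the 8 genes in TPM (vertical axes, linear) in every library, by group. Points are libraries, lines group means and bars SD (n = 3). Tcf24 lies at 2.81 to 10.5 TPM in the LFKO groups, Mme lies at 4.68 to 6.48 TPM in the LPKO groups and at up to 3.71 TPM in RD WT, and Cebpe is at 0 in all 3 RD LFKO libraries.

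H2ac18 has a near-identical copy beside it, H2ac19, so reads cannot be assigned to either with certainty. In the GENCODE M21 transcripts 89.6% of the 31-base words of H2ac18 are also in H2ac19, and 89.7% in the overlapping Gm20634. H2ac19 had 56.3 to 62.7 TPM in RD LFPKO livers, against 84.0 to 120 TPM in RD LPKO livers. The sum of both copies was 57.9 to 69.9 TPM in RD LFPKO livers, against 99.1 to 141 TPM in RD LPKO livers, a log2 difference of -0.90 ± 0.16. It was 80.6 to 109 TPM in RD LFKO livers, against 63.5 to 77.3 TPM in RD WT livers (0.40 ± 0.16). H2ac19 alone had 62.5 to 86.9 TPM in RD LFKO livers, against 55.7 to 63.2 TPM in RD WT livers, with overlap. The directions of H2ac18 on RD were also those of the sum, at smaller size. H2ac18 is part of the sum, so this likeness is partly built in. The share of the sum given to H2ac18 was 2.81% to 10.4% in RD LFPKO livers, against 14.1% to 15.2% in RD LPKO livers.

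**Figure D2:**
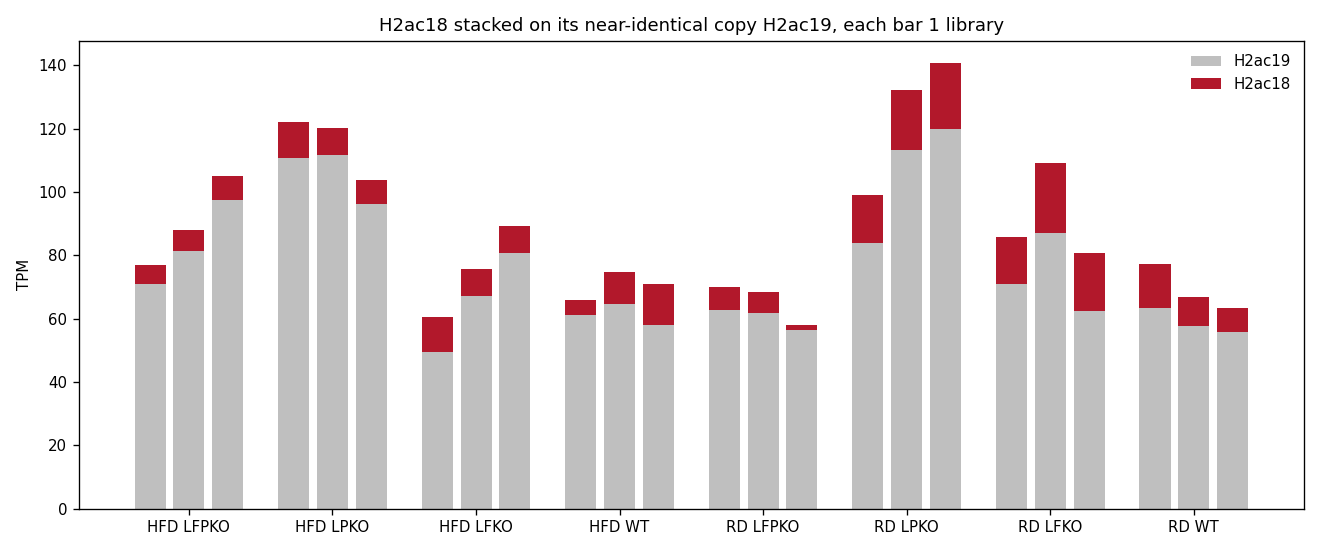
TPM of H2ac19 with H2ac18 stacked on it, each bar 1 library, 3 per group. The sum reaches 141 TPM in RD LPKO livers, and H2ac18 is the smaller piece in every library.

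Over the 4 contrasts of FoxO1 deletion the 8 genes fell into different patterns. Eif4ebp3 was lower in all 4. Tbc1d30 was lower in all 4, with overlap in LFPKO against LPKO on HFD. Sucnr1 and Mme were lower without overlap on both diets with PPARα deleted. Tcf24 was higher on both diets with PPARα present. Cebpe and Slc15a5 were lower without overlap on RD with PPARα present. H2ac18 was lower without overlap on RD with PPARα deleted and higher without overlap on RD with PPARα present. Cebpe and Sucnr1 were higher without overlap on HFD with PPARα present. Among all 10551 genes the fit called 13.5% for LFKO against WT on HFD and 1.67% on RD. It called 0.351% for LFPKO against LPKO on HFD and 0.123% on RD. The median of all tested genes was 0.21 in LFKO against WT on HFD and -0.01 after rescaling by size factors. Nothing is read from the members' place in these, since the contrasts chose them.

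**Figure D3:**
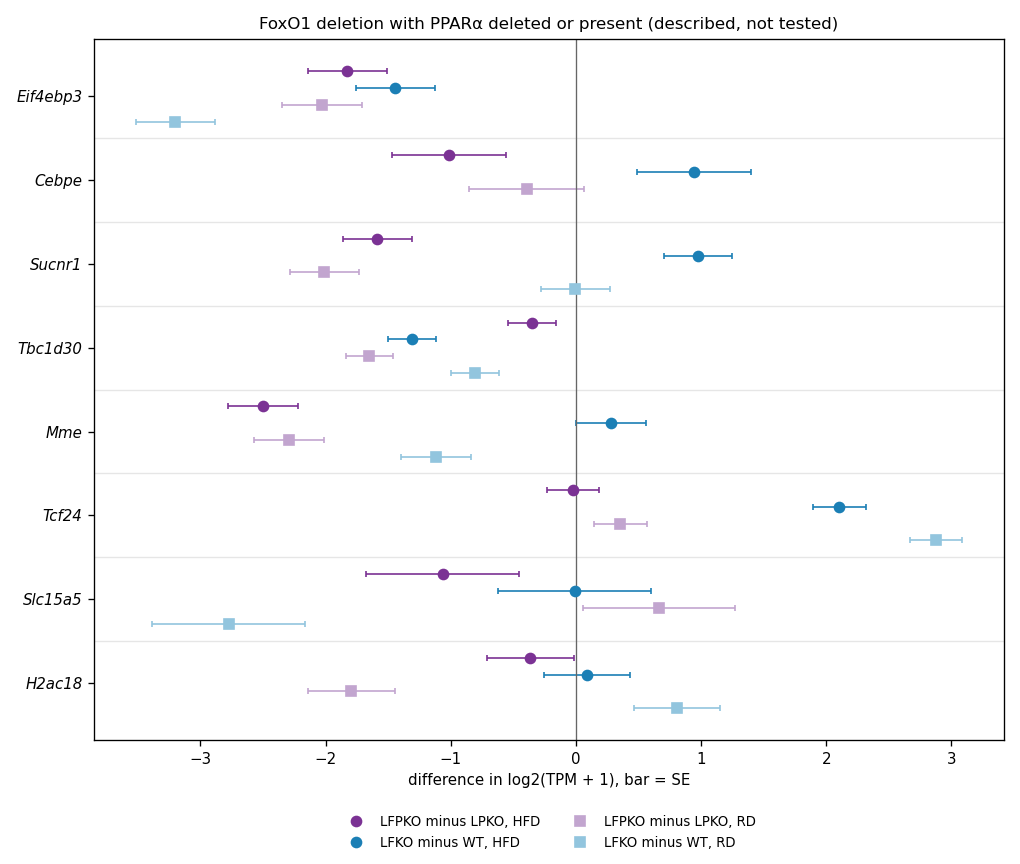
Difference of log2(TPM + 1) between FoxO1-deleted and FoxO1-containing livers (horizontal axis, bars SE) for each gene, with PPARα deleted or present, on HFD (circles) and RD (squares). Cebpe in LFKO against WT on RD is left out since RD LFKO was listed at 0. Eif4ebp3 lies left of 0 in all 4 contrasts (-3.20 to -1.44), and Tcf24 right of 0 with PPARα present (2.10 and 2.88).

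Known FoxO1 targets in liver, a list of 24 genes of which 23 were tested, were set beside all tested genes in these contrasts. In LFKO against WT on HFD 3 rose and 2 fell, where 1343 of all tested genes rose and 77 fell. After rescaling by size factors 235 of all rose and 197 fell there. The median of the list was 0.18 without rescaling, against 0.21 for all tested genes. On RD 0 of the list rose and 1 fell, where 113 of all rose and 63 fell. In LFPKO against LPKO 0 of 23 passed on either diet. G6pc, the catalytic subunit of glucose-6-phosphatase, averaged 57.7 ± 24 TPM in HFD LFKO livers and 179 ± 40 TPM in HFD WT livers (SD, n = 3 each; -1.67 ± 0.35, limma adjusted p = 0.00613).

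Deletion of PPARα was tested by setting LPKO against WT, with FoxO1 present, and LFPKO against LFKO, with FoxO1 deleted. These tests reuse the libraries of the contrasts that chose the genes, so they are not independent of that choice, and LPKO against WT and LFPKO against LFKO were not tested against each other. With FoxO1 present, Tbc1d30 rose on RD. With FoxO1 deleted, Sucnr1 fell on both diets, H2ac18 fell on RD, Eif4ebp3 and Cebpe rose on RD, and Tbc1d30 rose on HFD. Foxo1 itself averaged 8.28 ± 2.40 TPM in HFD LPKO livers and 4.77 ± 0.729 TPM in HFD WT livers, and was higher there (0.66 ± 0.14, limma adjusted p = 0.0107). That call was lost with the compared groups alone (0.198) and without HFD WT replicate 3 (0.0533) or HFD LPKO replicate 1 (0.0778) or 2 (0.0793 in limma). LPKO against WT on HFD is thus not a comparison at equal Foxo1.

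In LPKO against WT on HFD, 0 of the 6 genes other than Mme and Tcf24 rose and 0 fell in limma. Of all tested genes 3.6% rose and 1.13% fell there (4.73% either way). On RD 1 of 6 rose and 0 fell, where 3.52% of all rose and 2.33% fell (5.85% either way). Tbc1d30 averaged 8.42 ± 1.23 TPM in RD LPKO livers and 3.59 ± 0.733 TPM in RD WT livers (1.04 ± 0.19, limma adjusted p = 0.00176). Its high level in RD LPKO livers was part of a contrast that chose the genes, so this rise repeats part of that choice. Mme, which is described only, averaged 6.17 ± 0.284 TPM in HFD LPKO livers and 0.162 ± 0.0396 TPM in HFD WT livers (SD, n = 3 each), a log2 difference of 2.63 ± 0.28. On RD it averaged 4.83 ± 0.153 TPM in LPKO livers and 2.03 ± 1.72 TPM in WT livers (1.14 ± 0.28). Mme also marks B-cell precursors and neutrophils. On HFD 6 B-cell markers summed to 2.64 to 13.6 TPM in LPKO livers and 1.06 to 3.06 TPM in WT livers. The 14 neutrophil markers summed to 22.0 to 57.5 TPM in LPKO and 13.7 to 32.2 TPM in WT livers. Of 3 tested neutrophil markers 1 was higher and 0 lower on HFD (median log2 difference -0.32). The 1 tested B-cell marker did not pass. On RD, B-cell sums overlapped, at 2.94 to 5.06 TPM in LPKO and 3.97 to 5.18 TPM in WT livers, as did neutrophil sums. In HFD LFPKO livers the neutrophil sum was 38.2 to 87.4 TPM, with Mme at 0.147 to 0.366 TPM. On RD 12 Kupffer cell markers summed to 95.4 to 132 TPM in LPKO livers and 168 to 271 TPM in WT livers, with 1 of 12 lower. The part of these markers in the results was not tested.

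Other members missed the threshold with wide intervals. In HFD livers Sucnr1 averaged 15.6 ± 3.12 TPM in LPKO and 7.80 ± 2.45 TPM in WT (0.94 ± 0.27, 95% interval 0.37 to 1.51, limma adjusted p = 0.0520). It passed after rescaling by size factors (adjusted p = 0.0283), with a mean of at least 5 TPM (0.0430) and without HFD LPKO replicate 3 (0.0311). Slc15a5 differed by 1.79 ± 0.61 on HFD and by -1.64 ± 0.61 on RD, with every LPKO library above every WT library on HFD and below on RD; neither passed (limma adjusted p = 0.0921 on HFD and 0.128 on RD). Without HFD WT replicate 1 the HFD difference was 2.34 and passed (limma adjusted p = 0.0447). H2ac18 differed by 0.79 ± 0.34 on RD (limma adjusted p = 0.209) and by 0.04 ± 0.34 on HFD (0.967 in limma). Summed with H2ac19 it was higher on both diets, by 0.82 on RD (limma adjusted p = 0.00261) and by 0.70 on HFD (0.0124 in limma).

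In LFPKO against LFKO, 1 of the same 6 rose and 1 fell on HFD, where 1.85% of all tested genes rose and 8.74% fell (10.6% either way). On RD 2 of 6 rose and 2 fell, where 1.95% of all rose and 3.13% fell (5.08% either way). Tcf24, described only, averaged 0.163 ± 0.161 TPM in HFD LFPKO livers and 3.87 ± 1.13 TPM in HFD LFKO livers (-2.05 ± 0.21). On RD it averaged 0.990 ± 0.458 TPM in LFPKO livers and 8.96 ± 1.38 TPM in LFKO livers (-2.34 ± 0.21). Tcf24 was chosen for being high in LFKO, so its lower level in LFPKO repeats part of that choice. The same holds for tested genes that were low in LFKO (Eif4ebp3 and Cebpe on RD, Tbc1d30 on HFD) and rose in LFPKO. It also holds for those low in LFPKO (Sucnr1, and H2ac18 on RD) that fell there. The p-values of these genes are not independent of the choice.

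Sucnr1 averaged 4.47 ± 0.342 TPM in HFD LFPKO livers and 16.6 ± 5.86 TPM in HFD LFKO livers, and fell by 1.62 on the log2 scale (SE 0.27, limma adjusted p = 0.000476). On RD it averaged 4.21 ± 0.933 TPM in LFPKO livers and 18.1 ± 2.61 TPM in LFKO livers, and fell by 1.88 (SE 0.27, limma adjusted p = 0.000150). Stellate markers, summed over 9 genes, ranged from 127 to 160 TPM in HFD LFPKO livers and from 179 to 202 TPM in HFD LFKO livers. Of 8 tested markers 0 were higher and 1 lower, where 1.85% of all tested genes rose and 8.74% fell. After rescaling by size factors 0 of the 8 were higher and 0 lower. On RD the sums overlapped, at 169 to 197 TPM in LFPKO and 176 to 236 TPM in LFKO livers, with 0 of 8 called either way. The part of the markers in the HFD result was not tested.

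Eif4ebp3 averaged 38.7 ± 9.60 TPM in RD LFPKO livers and 8.47 ± 1.34 TPM in RD LFKO livers, a log2 difference of 2.05 ± 0.32 (limma adjusted p = 0.000288). On HFD its groups overlapped, at 88.5 ± 31.3 TPM in LFPKO and 66.8 ± 16.4 TPM in LFKO livers (0.37 ± 0.32, limma adjusted p = 0.502). Cebpe was at 4.74 to 8.30 TPM in RD LFPKO livers and listed at 0 in every RD LFKO library (limma adjusted p = 0.000583, with no fold given). H2ac18 averaged 5.17 ± 3.09 TPM in RD LFPKO livers and 18.4 ± 3.64 TPM in RD LFKO livers, a log2 difference of -1.80 ± 0.34 (limma adjusted p = 0.00241). That call was lost when H2ac18 and H2ac19 were summed (-0.48, adjusted p = 0.0924) and with the compared groups alone (-1.80, 0.0501). Tbc1d30 averaged 4.33 ± 1.84 TPM in HFD LFPKO livers and 2.09 ± 0.520 TPM in HFD LFKO livers (0.74 ± 0.19, limma adjusted p = 0.0149). It was lost with the compared groups alone (0.211) and without HFD LFPKO replicate 1 (0.116), HFD LFKO replicate 2 (0.0820) or HFD LFKO replicate 3 (0.0713). Slc15a5 differed by 1.80 ± 0.61 on RD, which did not pass (limma adjusted p = 0.103) and did with the compared groups alone (0.0498).

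**Figure D4:**
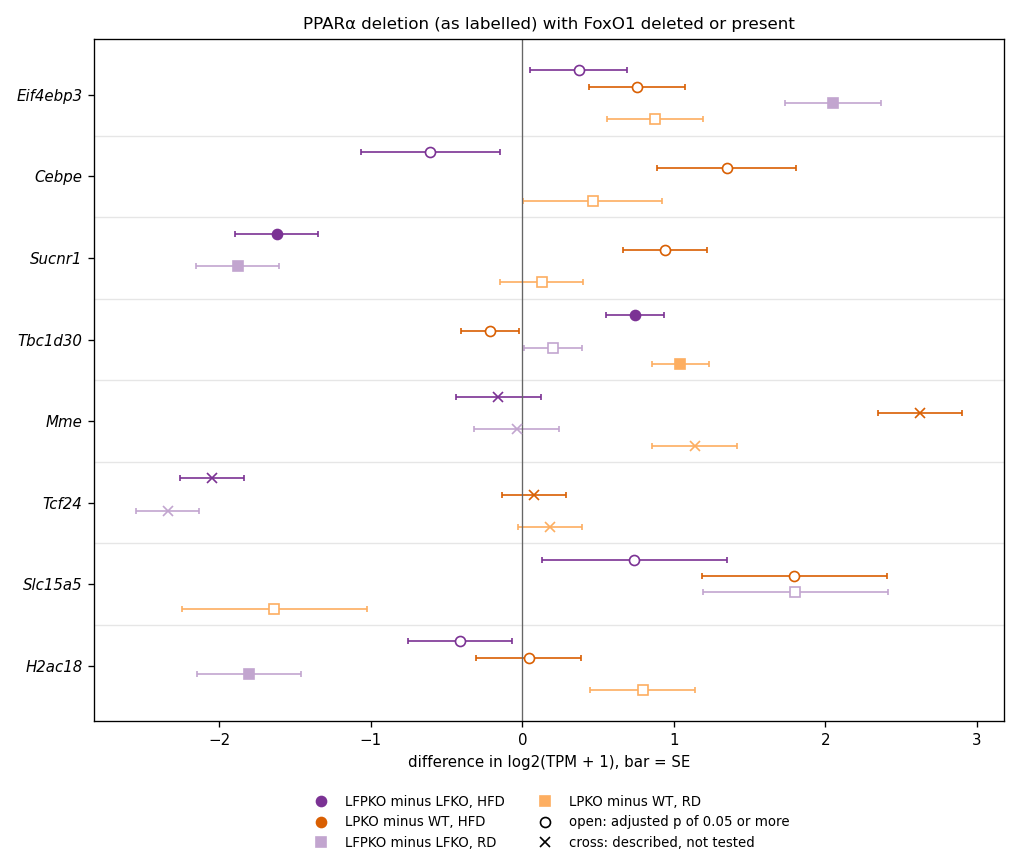
Difference of log2(TPM + 1) after PPARα deletion as labelled (horizontal axis, bars SE) with FoxO1 deleted (purple) or present (orange), on HFD (circles) and RD (squares). Open marks did not pass the limma adjusted p of 0.05, crosses (Mme and Tcf24) were not tested, and Cebpe in LFPKO against LFKO on RD is left out. Sucnr1 lies left of 0 on both diets with FoxO1 deleted (-1.62 on HFD and -1.88 on RD).

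Whether PPARα deletion acted differently on the diets with FoxO1 present was tested as an interaction. In limma 0 of the 6 genes passed, and 0.171% of all tested genes passed. For Tbc1d30 the interaction was -1.26 ± 0.27 (limma adjusted p = 0.0628, and 0.0326 without HFD LPKO replicate 3). For Slc15a5 it was 3.43 ± 0.86 (limma adjusted p = 0.141).

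The high-fat diet was set against the regular diet in each genotype. These tests also reuse the libraries of the contrasts that chose the genes, so they are not independent of that choice. In those contrasts Eif4ebp3 and Cebpe were low in RD LFKO livers and Slc15a5 was high in RD WT livers. Tbc1d30 was low in RD LFPKO livers and high in HFD WT livers. Diet changes that involve these groups, and their size beside other genotypes, thus repeat part of the choice. Eif4ebp3 rose in all 4 genotypes, and Tbc1d30 rose in LFPKO and WT livers. Cebpe fell in LFPKO and WT livers and rose in LFKO livers, and Sucnr1 and Slc15a5 fell in WT livers. Foxo1 was higher on HFD in LPKO livers, at 8.28 ± 2.40 TPM on HFD and 4.41 ± 0.263 TPM on RD (0.74 ± 0.14, limma adjusted p = 0.00299). The median of all tested genes was itself lower on HFD, by -0.23 in LFPKO, -0.22 in LPKO, -0.11 in LFKO and -0.29 in WT livers, and lay between -0.01 and 0.02 after rescaling by size factors. Without rescaling 142 genes rose and 2631 fell in LFPKO livers, 82 and 1828 in LPKO, 117 and 880 in LFKO and 111 and 3139 in WT. After it 500 rose and 884 fell in LFPKO livers, 290 and 390 in LPKO, 414 and 674 in LFKO and 468 and 372 in WT. No called member changed direction under this rescaling.

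In LFPKO livers 2 of the 6 tested members rose and 1 fell, where 1.35% of all tested genes rose and 24.9% fell (26.3% either way). In LPKO livers 1 rose and 0 fell, where 0.777% of all rose and 17.3% fell (18.1% either way). In LFKO livers 2 rose and 0 fell, where 1.11% of all rose and 8.34% fell (9.45% either way). In WT livers 2 rose and 3 fell, where 1.05% of all rose and 29.8% fell (30.8% either way).

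Eif4ebp3 averaged 88.5 ± 31.3 TPM in HFD LFPKO livers and 38.7 ± 9.60 TPM in RD LFPKO livers (1.15 ± 0.32, limma adjusted p = 0.0125). It averaged 313 ± 94.7 TPM in HFD LPKO livers and 168 ± 77.9 TPM in RD LPKO livers, with overlap (0.94 ± 0.32, limma adjusted p = 0.0449). It averaged 66.8 ± 16.4 TPM in HFD LFKO livers and 8.47 ± 1.34 TPM in RD LFKO livers, a log2 difference of 2.82 ± 0.32 (limma adjusted p = 2.49e-05). The LFKO change was the largest of the 4 and the LPKO change the smallest, and these differences were not tested. In WT livers the means were 186 ± 58.5 TPM on HFD and 88.5 ± 29.0 TPM on RD (1.06 ± 0.32, limma adjusted p = 0.0194). The LPKO call was lost after rescaling (0.0515), without the Mup and mitochondrial-genome transcripts (0.0507), with no filter (0.101), with the compared groups alone (0.0861) and without HFD LPKO replicate 1 (0.146) or 3 (0.0924) or RD LPKO replicate 1 (0.171) or 3 (0.168 in limma). The LFPKO call was lost without HFD LFPKO replicate 1 (0.0927) or RD LFPKO replicate 1 (0.0607). The WT call was lost without HFD WT replicate 1 (0.0696) or RD WT replicate 2 (0.0582) or 3 (0.0961 in limma).

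Tbc1d30 averaged 4.33 ± 1.84 TPM in HFD LFPKO livers and 1.99 ± 0.219 TPM in RD LFPKO livers (0.78 ± 0.19, limma adjusted p = 0.00601). That call was lost with the compared groups alone (0.0657) and without HFD LFPKO replicate 1 (0.0539 in limma). It averaged 6.63 ± 0.908 TPM in HFD WT livers and 3.59 ± 0.733 TPM in RD WT livers (0.74 ± 0.19, limma adjusted p = 0.00938). In LPKO livers every HFD library lay below every RD library, at 5.59 ± 0.901 TPM on HFD and 8.42 ± 1.23 TPM on RD, which did not pass (-0.52 ± 0.19, limma adjusted p = 0.0633).

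Tcf24 and Mme are again described only. Tcf24 averaged 3.87 ± 1.13 TPM in HFD LFKO livers and 8.96 ± 1.38 TPM in RD LFKO livers, a log2 difference of -1.05 ± 0.21. It averaged 0.163 ± 0.161 TPM in HFD LFPKO livers and 0.990 ± 0.458 TPM in RD LFPKO livers (-0.76 ± 0.21). Mme averaged 0.162 ± 0.0396 TPM in HFD WT livers and 2.03 ± 1.72 TPM in RD WT livers (-1.19 ± 0.28).

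Slc15a5 fell in WT livers to 1.33 ± 1.67 TPM on HFD, against 9.51 ± 1.74 TPM on RD (-2.38 ± 0.61, limma adjusted p = 0.00920, and 0.0594 without HFD WT replicate 2). Sucnr1 fell in WT livers to 7.80 ± 2.45 TPM on HFD, against 18.9 ± 6.83 TPM on RD (-1.15 ± 0.27, limma adjusted p = 0.00643, and 0.0557 without HFD WT replicate 2). In the same livers 7 of 8 tested stellate markers fell, and 5 of 8 after rescaling by size factors, and the 9 markers summed to 91.5 to 141 TPM on HFD and 200 to 286 TPM on RD. Their part in the result for Sucnr1 was not tested.

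Cebpe was at 1.99, 0 and 2.23 TPM in HFD WT livers, against 4.35 to 7.91 TPM in RD WT livers (limma adjusted p = 0.0160). That call was lost after rescaling (0.0872), without the Mup and mitochondrial-genome transcripts (0.0930) and without HFD WT replicate 2, in which it was listed at 0 (0.126). In LFPKO livers it was at 3.06, 3.78 and 0 TPM on HFD, against 4.74 to 8.30 TPM on RD (limma adjusted p = 0.0360). That call was lost with a pseudocount of 0.1 (0.0873), with no filter (0.0895), after rescaling (0.138), without the Mup and mitochondrial-genome transcripts (0.159), with the compared groups alone (0.134), without HFD LFPKO replicate 3 (0.219) and without any 1 RD LFPKO library (0.0586 to 0.124 in limma). In LFKO livers it was at 2.83 to 3.44 TPM on HFD and listed at 0 in all RD libraries (limma adjusted p = 0.00967). H2ac18 passed in no genotype; with the compared groups alone it passed in LPKO (-0.93, limma adjusted p = 0.0246) and LFKO livers (-0.90, 0.0326 in limma), and summed with H2ac19 in LFPKO livers (0.45, 0.0410 in limma).

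**Figure D5:**
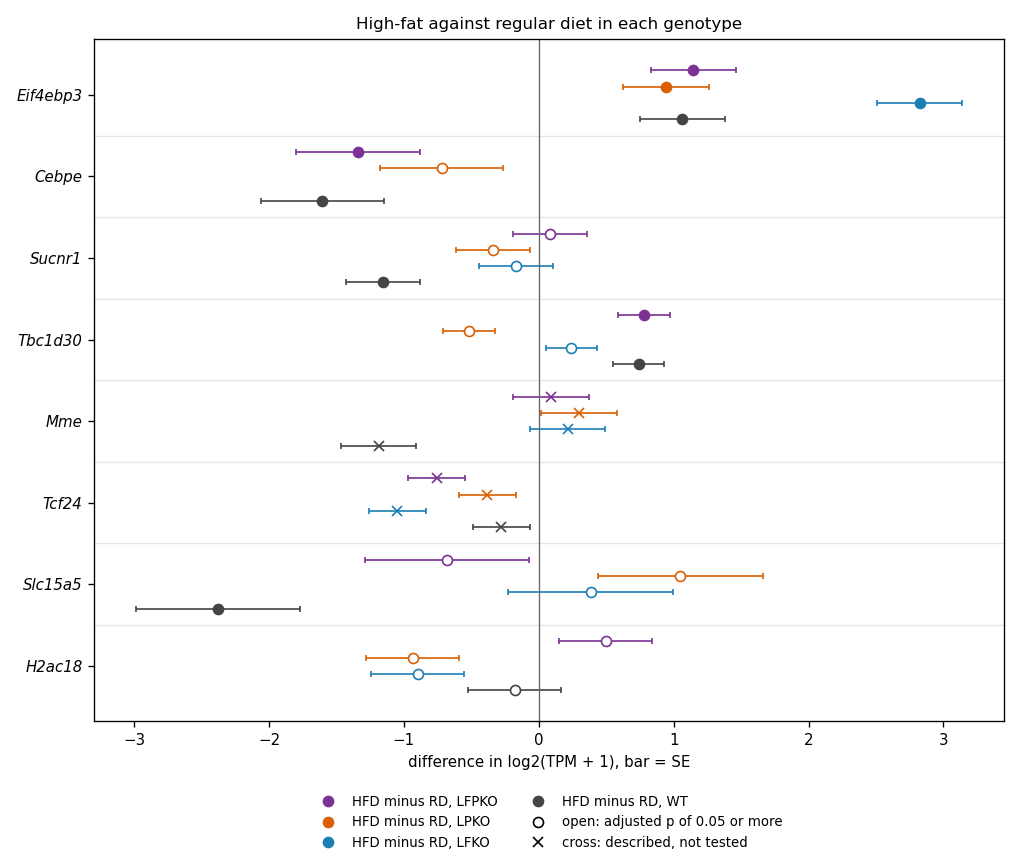
Difference of log2(TPM + 1) between HFD and RD livers (horizontal axis, bars SE) in each genotype. Open marks did not pass the limma adjusted p of 0.05, crosses (Mme and Tcf24) were not tested, and Cebpe in LFKO is left out since RD LFKO was listed at 0. Eif4ebp3 lies right of 0 in all 4 genotypes (0.94 to 2.82), and Slc15a5 in WT lies farthest left (-2.38).

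The relatives of the 8 genes show whether a change was shared within a family. Of 11 genes of the eIF4F complex and its inhibitors, Eif4e3, a cap-binding protein, rose with PPARα deletion in each of the 4 tests and no other did. In HFD livers Eif4e3 averaged 6.79 ± 1.5 TPM in LPKO and 2.35 ± 0.34 TPM in WT (1.21 ± 0.21, limma adjusted p = 0.00167). Eif4ebp1, the relative of Eif4ebp3 that insulin signalling phosphorylates, fell on HFD in LFPKO, LPKO and LFKO livers, in which Eif4ebp3 rose. In LPKO livers it averaged 28.0 ± 2.4 TPM on HFD and 44.5 ± 4.3 TPM on RD (-0.65 ± 0.14, limma adjusted p = 0.00619). Eif4ebp2 fell in WT livers, at 43.9 ± 2.8 TPM on HFD and 63.3 ± 3.6 TPM on RD (-0.52 ± 0.13, limma adjusted p = 0.00907). Of the 11 genes 0 rose and 4 fell in WT livers, where 29.8% of all tested genes fell and their median was -0.29. In LPKO livers 1 of 11 rose and 1 fell, where 17.3% of all fell and their median was -0.22. These medians were 0.02 in WT and -0.01 in LPKO after rescaling by size factors.

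Of 16 receptors for succinate-like metabolites and nucleotides only 3 were tested, P2ry1, P2ry2 and Hcar2. P2ry1, a receptor for ADP, fell with PPARα deletion in each of the 4 tests. In HFD livers it averaged 2.29 ± 0.57 TPM in LFPKO and 10.2 ± 3.0 TPM in LFKO (-1.75 ± 0.19, limma adjusted p = 3.64e-06). Hcar2, the receptor for niacin and hydroxybutyrate, rose in both tests on RD, and the difference between the diets was not tested. It was at 5.52 ± 3.4 TPM in RD LPKO livers and 0.199 ± 0.053 TPM in RD WT livers (2.25 ± 0.35, limma adjusted p = 0.000373).

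Of 6 other C/EBP genes Cebpg alone passed with PPARα deletion, in RD LPKO livers (20.6 ± 1.9 TPM, against 14.1 ± 0.95 TPM in RD WT livers; 0.52 ± 0.12, limma adjusted p = 0.0149). Of 30 tested TBC-domain Rab regulators, Tbc1d24 rose in LPKO against WT on RD (0.69 ± 0.17, limma adjusted p = 0.0141) and Rabgap1l in LFPKO against LFKO on RD (0.61 ± 0.13, 0.00526 in limma), and none fell. On HFD against RD in WT livers 0 of 30 rose and 14 fell, against 29.8% of all tested genes that fell. Their median there was -0.36, against -0.29 for all tested genes, and after rescaling 2 of 30 rose and 0 fell. Of 5 tested neprilysin relatives and cell surface peptidases 0 passed in the 4 tests of PPARα deletion. The same was true of 3 tested SLC15 transporters and of 2 tested relatives of Tcf24. Of 6 other tested histone genes, H2ac19 rose in LPKO against WT on HFD (0.78 ± 0.16, limma adjusted p = 0.00653) and on RD (0.82 ± 0.16, 0.00349 in limma). H4c8, an H4 histone, rose in LFPKO against LFKO on HFD (1.30 ± 0.28, limma adjusted p = 0.00501). Markers of dividing cells, 10 genes, summed to 30.1 to 34.8 TPM in RD LFPKO livers and 28.8 to 34.3 TPM in RD LFKO livers, where H2ac18 differed.

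Genes whose 8 group means ran most like each member's were found by Pearson's r of the log2 values, a description over 8 points that share libraries. The closest were Gpcpd1 for Eif4ebp3 (r = 0.977), Nemf for Cebpe (0.978), Zfp592 for Sucnr1 (0.963) and Wnk4 for Tbc1d30 (0.927). The size of a change does not enter r. On the log2 scale the group means spanned 2.17 for Gpcpd1 and 1.02 for Wnk4, but only 0.22 for Nemf and 0.25 for Zfp592. Mcc was closest to Mme (0.960), Slc22a27 to Tcf24 (0.976), Numb to Slc15a5 (0.917) and Ier2 to H2ac18 (0.938). Ttc39c was among the 3 closest genes of both Eif4ebp3 (0.974) and Tbc1d30 (0.926), and Med1 of both Sucnr1 (0.928) and H2ac18 (0.917). Among the members, the highest r was between Eif4ebp3 and Tbc1d30 (0.841) and the lowest between Eif4ebp3 and Tcf24 (-0.834).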

How the data were processed

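Liver RNA libraries (TruSeq Stranded mRNA, per the labels' protocols) were quantified by the authors as gene-level TPM, deposited as 1 table; kallisto, GRCm38 and mm10 are named in the submitters' processing notes, with no version or annotation in the sources used here. One line without a gene name (0.0104% to 0.0250% of the TPM) was left out. TPM were used as deposited, on a log2(TPM + 1) scale. Those genes that reached a mean of at least 1 TPM (10551) were fitted with limma 3.58.1 in R 4.3.3, with 1 mean per group over all 24 libraries (16 residual degrees of freedom) and trended variances, and Benjamini-Hochberg adjustment within each comparison. No exact permutation test was used, as 3 against 3 libraries allow no p below 0.1. The members and gene lists were chosen with earlier results of these data known. The text names all members, Foxo1 and Ppara, the genes closest by r (tested, no predicted or clone name) and up to 4 members of a list with the smallest adjusted p; H2ac19 was named as a copy. The fit was repeated with a pseudocount of 0.1, without the filter, with a mean of at least 5 TPM, after median-of-ratios rescaling, with a replicate block, with the compared groups alone and omitting single libraries; removal of the Mup and mitochondrial-genome transcripts and the sum of H2ac18 with H2ac19 were added after seeing the data. On simulated data with normal noise, 200 genes among 10551 carried planted changes, all of them genes above about 5 TPM. The fit called 90% of log2 changes of 1 for LPKO against WT on RD and 91% for HFD against RD in WT livers. It called 68% for the interaction of LPKO with diet. Cebpe, Tbc1d30, Slc15a5, Mme and Tcf24 averaged 1.79 to 4.28 TPM, so these shares were not measured at their level. Positions are from GENCODE M21 and promoters from RefSeq; 31-base words were compared between transcripts. Figures were drawn with matplotlib 3.10.9.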

Additional observations from a re-analysis of the deposited data

Results flagged for a closer look

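For some genes the libraries of a pair of groups lay without overlap on opposite sides under the same contrast; none of these differences was itself tested. The HFD libraries of Cebpe lay below the RD libraries in LFPKO and WT and above them in LFKO livers, so that in mean TPM LFPKO minus LFKO was -6.82 TPM and LFKO minus WT 7.35 TPM. With PPARα deletion on HFD, Sucnr1 libraries lay lower with FoxO1 deleted and higher with it present, a difference of -2.56 on the log2 scale; the second part did not pass (limma adjusted p = 0.0520). The HFD libraries of Tbc1d30 lay above the RD libraries in LFPKO and LFKO and below them in LPKO livers, so that LFPKO minus LPKO was 1.30 and LPKO minus LFKO -0.76. The parts in LFKO (0.24 ± 0.19, limma adjusted p = 0.470) and LPKO (-0.52 ± 0.19, 0.0633 in limma) did not pass. With PPARα deletion on RD, Slc15a5 libraries lay higher with FoxO1 deleted and lower with it present (difference 3.44), and neither part passed (limma adjusted p = 0.103 and 0.128). H2ac18 libraries lay lower with FoxO1 deleted and higher with it present (difference -2.60), and the second part did not pass (limma adjusted p = 0.209). The differences given for Sucnr1, Slc15a5 and H2ac18 are also those between the contrasts of FoxO1 deletion on the same diet. Those contrasts chose the genes, so these values repeat that choice.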

How the results depend on the processing

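TPM hold no depth and 3 libraries per group limit precision. Deviations of log2(TPM + 1) from the group mean correlated by -0.230 to 0.387 between same-numbered libraries of the compared groups, in 12 comparisons. In 0 of these was every pair over 0.1, so a replicate block is reported here only. The block moved the interaction count to 8 from 18 genes, and no other count by over 1.5 times. No called member value changed sign in any alternative.

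After rescaling the calls were 996 for LPKO against WT on RD (main 617), 720 (373 higher, 347 lower) for LPKO against WT on HFD (main 380 higher, 119 lower), 866 for LFPKO against LFKO on RD (main 536). They were 1110 (468 higher, 642 lower) for LFPKO against LFKO on HFD (main 195 higher, 922 lower), 840 (468 higher, 372 lower) for HFD against RD in WT livers (main 111 higher, 3139 lower), 1088 (414 higher, 674 lower) for HFD against RD in LFKO livers (main 117 higher, 880 lower). They were 680 (290 higher, 390 lower) for HFD against RD in LPKO livers (main 82 higher, 1828 lower), 1384 (500 higher, 884 lower) for HFD against RD in LFPKO livers (main 142 higher, 2631 lower), 397 for LFKO against WT on RD (main 176). They were 432 (235 higher, 197 lower) for LFKO against WT on HFD (main 1343 higher, 77 lower), 127 for LFPKO against LPKO on HFD (main 37), 50 for the LPKO by diet interaction (main 18). Without Mup and mitochondrial-genome transcripts the calls were 949 for LPKO against WT on RD (main 617), 685 (291 higher, 394 lower) for LPKO against WT on HFD (main 380 higher, 119 lower), 988 (618 higher, 370 lower) for LFPKO against LFKO on RD (main 206 higher, 330 lower). They were 1171 (655 higher, 516 lower) for LFPKO against LFKO on HFD (main 195 higher, 922 lower), 843 (426 higher, 417 lower) for HFD against RD in WT livers (main 111 higher, 3139 lower), 1101 (600 higher, 501 lower) for HFD against RD in LFKO livers (main 117 higher, 880 lower). They were 788 (231 higher, 557 lower) for HFD against RD in LPKO livers (main 82 higher, 1828 lower), 1325 (614 higher, 711 lower) for HFD against RD in LFPKO livers (main 142 higher, 2631 lower), 293 (123 higher, 170 lower) for LFKO against WT on RD (main 113 higher, 63 lower). They were 430 (199 higher, 231 lower) for LFKO against WT on HFD (main 1343 higher, 77 lower), 108 for LFPKO against LPKO on HFD (main 37), 49 for the LPKO by diet interaction (main 18). With the compared groups alone the calls were 147 (89 higher, 58 lower) for LPKO against WT on HFD (main 380 higher, 119 lower), 267 for LFPKO against LFKO on HFD (main 1117), 432 for HFD against RD in LFKO livers (main 997). They were 1242 for HFD against RD in LFPKO livers (main 2773), 431 for LFKO against WT on RD (main 176), 140 (108 higher, 32 lower) for LFKO against WT on HFD (main 1343 higher, 77 lower). They were 8 for LFPKO against LPKO on RD (main 13), 5 for LFPKO against LPKO on HFD (main 37). With a mean of at least 5 TPM the calls were 97 for LFKO against WT on RD (main 176), 4 for LFPKO against LPKO on RD (main 13), 21 for LFPKO against LPKO on HFD (main 37). With no filter the calls were 10 for the LPKO by diet interaction (main 18). With a pseudocount of 0.1 the calls were 8 for LFPKO against LPKO on RD (main 13).

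Leaving out 1 library at a time gave 312 to 501 for LPKO against WT on RD, 198 to 889 for LPKO against WT on HFD, 278 to 445 for LFPKO against LFKO on RD, 551 to 2438 for LFPKO against LFKO on HFD. It gave 920 to 3590 for HFD against RD in WT livers, 326 to 1377 for HFD against RD in LFKO livers, 576 to 1697 for HFD against RD in LPKO livers, 1307 to 2911 for HFD against RD in LFPKO livers. It gave 77 to 173 for LFKO against WT on RD, 199 to 3501 for LFKO against WT on HFD, 7 to 18 for LFPKO against LPKO on RD, 8 to 283 for LFPKO against LPKO on HFD. It gave 3 to 60 for the LPKO by diet interaction. The lowest count for HFD against RD in WT livers and for LFKO against WT and LPKO against WT on HFD came without HFD WT replicate 2.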
